A study of Rattus norvegicus with 9 samples.

Results

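tRNA-Gly-CCC and tRNA-Gly-TCC are nuclear-encoded glycine tRNAs, and 12 distinct tRNA-derived fragments (tRFs) assigned to them, 10 to tRNA-Gly-CCC and 2 to tRNA-Gly-TCC, were among the 192 distinct tRFs listed as changed in islets of protein-deprived rats. They were found by the host tRNA named for each sequence. Of the 15 sequences with either host, 3 were also listed for tRNA-Gly-GCC and were left out, as were the fragments of the mitochondrial glycine tRNA. Small RNA was sequenced from pancreatic islets of 22-day-old Sprague Dawley rats, described as male in the study's methods, whose mothers ate a chow diet with 16.8% protein (CD, n = 5) or a low-protein diet with 5.3% protein (LP, n = 4) during pregnancy and lactation. Neither group is described as carrying a genetic change or receiving a drug, and each sample is listed as 1 animal of unstated litter, so the errors cover only the spread between these samples. LP exposure serves as a model of susceptibility to diabetes, and the comparison asks which islet tRFs differ under it. The table used here holds only tRFs, so the islet label could not be checked against marker genes. In whole islets, fewer cells of a type cannot be told apart from less of an RNA per cell.

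A tRNA folds into an acceptor stem, a D arm, an anticodon arm and a T arm, and its 3′ end is a CCA tail that is added after transcription and carries the amino acid. The CCC anticodon reads the glycine codon GGG, and TCC (UCC in the RNA) reads GGA. Endonucleases such as angiogenin cut tRNAs in the anticodon loop, which yields a 5′ and a 3′ piece, and glycine tRNAs are a well-known source of such fragments. The T loop of many tRNAs carries N1-methyladenosine, a modification that stops reverse transcription unless it is removed, as was done here before library construction.

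The 12 sequences are printed because tRNA-Gly-CCC gave both fragments that were higher and fragments that were lower in LP islets. The higher and lower fragments differed in their ends and in their length, which cannot be told apart here. They are given 5′ to 3′ as deposited, in DNA letters. Capitals mark, where present, the anticodon, the 7 bases of the T loop and the CCA tail, in that order. Names give the host tRNA followed by the number of nucleotides (nt).
tRNA-Gly-CCC 54: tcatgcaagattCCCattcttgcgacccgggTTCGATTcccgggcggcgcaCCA
tRNA-Gly-CCC 53: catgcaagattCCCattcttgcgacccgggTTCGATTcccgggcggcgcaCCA
tRNA-Gly-CCC 52: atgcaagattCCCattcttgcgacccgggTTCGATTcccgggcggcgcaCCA
tRNA-Gly-CCC 30: atgcaagattCCCattcttgcgacccgggT
tRNA-Gly-TCC 30: atagctgcctTCCaagcagttgacccgggT
tRNA-Gly-CCC 19: attcttgcgacccgggTTC
tRNA-Gly-CCC 37: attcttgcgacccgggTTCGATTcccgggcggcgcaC
tRNA-Gly-CCC 36: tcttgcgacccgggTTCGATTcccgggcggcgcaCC
tRNA-Gly-CCC 35: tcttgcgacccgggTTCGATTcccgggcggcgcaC
tRNA-Gly-CCC 32: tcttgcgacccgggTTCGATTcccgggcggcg
tRNA-Gly-CCC 39: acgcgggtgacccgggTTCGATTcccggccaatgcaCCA
tRNA-Gly-TCC 17: TcccggccaacgcaCCA

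None of these fragments holds the 5′ end of the mature tRNA. The forms of 32 to 37 nt, a size at which 5′ pieces are commonly found, all came from the 3′ part. Counted from the first base of the T loop as position 0, the anticodon lies at positions -19 to -17 and the tail ends at position 22. tRNA-Gly-CCC 37 and tRNA-Gly-CCC 39 start at position -16, directly after the anticodon, and the forms of 32, 35 and 36 nt start 2 nt further on. Those of 35 and 37 nt stop 2 nt short of the complete tail, that of 36 nt stops 1 nt short, and that of 32 nt stops 5 nt short. The forms of 52, 53 and 54 nt start before the anticodon arm and run to the last base of the tail. Of the 10 tRNA-Gly-CCC fragments 9 are nested, all lying within the 54-nt form, and tRNA-Gly-CCC 39 comes from a tRNA-Gly-CCC of another sequence. Genome positions were not used here.

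**Figure D1:**
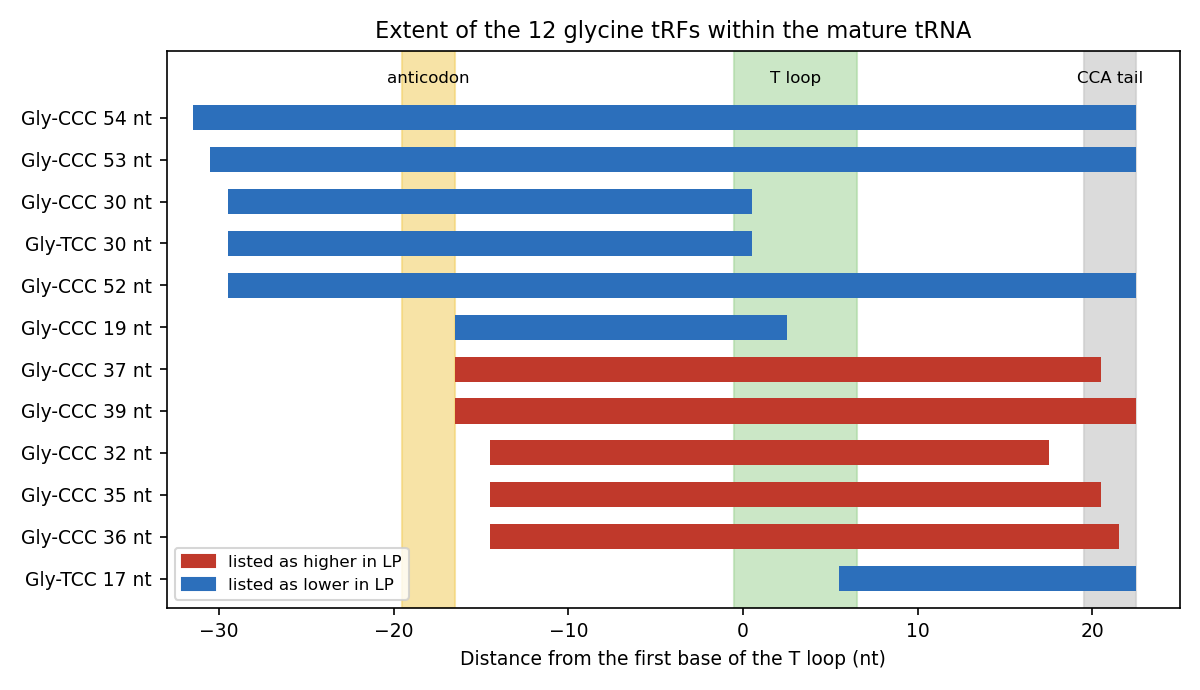
Extent of the 12 tRFs, as the distance in nt of each end from the first base of the T loop, with the anticodon, T loop and CCA tail shaded. The 5 bars in red, listed as higher in LP, all start after the anticodon and end within 5 nt of the complete tail, while the 7 in blue, listed as lower, hold the anticodon, end in the T loop or start in it.

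Levels are given as normalized read counts, for which the deposited counts of each library were divided by its size factor in the authors' analysis. A read spans its whole fragment, so levels were not divided by length. How well fragments of different length and sequence enter a library was not measured. Levels of different tRFs are thus compared as read counts only. Each sequence was counted on its own, since tRNA-Gly-CCC 19 had fewer counts than tRNA-Gly-CCC 37, which contains it, in 9 of 9 samples. All tRFs in the table were called by the authors on these same 9 samples. The fold changes below are therefore descriptions of size that tend to be too large, and their p-values are not independent evidence of change. With edgeR's quasi-likelihood test over the whole table, 5 of the 11 tested members rose and 5 fell in LP by at least 2-fold with an adjusted p under 0.05. Over all 181 tested tRFs, 41.4% were higher and 56.4% lower. The member counts summed to 316 to 504 per CD sample and 518 to 2542 per LP sample, out of table totals of 26166 to 34775 and 12556 to 40166.

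The tRNA-Gly-CCC fragments of 32 to 37 nt rose in LP islets, 4 of 4 past the test. Of all tested tRFs 41.4% were higher, and of the 34 of this size from other hosts 27 were. tRNA-Gly-CCC 37, the most abundant member, stood at 96, 165.1, 54.9, 53.9 and 225.2 normalized read counts in CD 1 to CD 5 and at 771.5, 221.3, 238.8 and 924.5 in LP 1 to LP 4. LP 1 and LP 4 were far above every CD sample, while LP 2 lay just below CD 5, so the groups overlapped. Its log2 fold change was 2.18 ± 0.57 (SE, edgeR adjusted p = 0.00434). tRNA-Gly-CCC 35, which lacks the first 2 bases of the 37-nt form and shares its 3′ end, gave 3.2, 16.5, 9.98, 16.2 and 27.9 in CD and 223.4, 78.7, 20.6 and 181.9 in LP. Here LP 3 fell below CD 5, and the other LP samples were higher than every CD sample. With a log2 fold change of 3.06 ± 0.66 (SE, edgeR adjusted p = 0.00243) it had the largest estimate of the 11 tested members.

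The other forms of that size showed separate groups. tRNA-Gly-CCC 36, which is 1 base longer at the 3′ end, had 9.6, 12.1, 21.6, 20.5 and 15.5 normalized read counts in CD and 93.2, 30.9, 55.7 and 58.4 in LP, a log2 fold change of 1.88 ± 0.44 (SE, edgeR adjusted p = 0.00295). LP 1 was the highest, and the lowest LP sample, LP 2, was above all CD samples. tRNA-Gly-CCC 32, which ends in the acceptor stem, had 1.6, 3.3, 15.8, 31.3 and 8.26 in CD and 86.3, 53.8, 62.6 and 101.8 in LP. Its CD values rest on 1 to 29 counts and spread widely, yet no CD sample reached the LP range (log2 fold change 2.62 ± 0.62, SE, edgeR adjusted p = 0.00295). CD 4 was the highest CD sample, and without it the log2 fold change was 3.30. The median log2 fold change of the 4 was 2.40, against -1.49 over all tested tRFs.

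tRNA-Gly-CCC 39, the only fragment with a complete tail that rose among the 5 members that have one, starts at the same point after the anticodon as the 37-nt form but in a different tRNA-Gly-CCC. It was found at 11.2, 12.1, 6.65, 6.47 and 3.1 normalized read counts in CD and 16.4, 16.9, 36.5 and 47.3 in LP. LP 3 and LP 4 were the higher LP samples, and LP 1 and LP 2 lay just above the CD range. The log2 fold change was 1.93 ± 0.47 (SE, edgeR adjusted p = 0.00337).

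The long tRNA-Gly-CCC fragments, which include the anticodon, T loop and whole tail, fell, 3 of 3 past the test. Of all tested tRFs 56.4% were lower, as were all 17 tested tRFs over 50 nt from other hosts. tRNA-Gly-CCC 54 gave 81.6, 53.9, 45.7, 32.4 and 43.4 normalized read counts in CD and 11, 19.9, 17.9 and 14.5 in LP (log2 fold change -1.68 ± 0.42, SE, edgeR adjusted p = 0.00371). All LP samples were below all CD samples. For tRNA-Gly-CCC 53 the values were 54.4, 35.2, 32.4, 20.5 and 19.6 in CD and 5.48, 13, 7.57 and 12.8 in LP, again without overlap (-1.69 ± 0.45, edgeR adjusted p = 0.00442). tRNA-Gly-CCC 52 had 105.6, 74.9, 48.2, 19.4 and 37.2 in CD and 17.8, 16.9, 20.6 and 13.9 in LP (-1.71 ± 0.50, edgeR adjusted p = 0.00529). In this form CD 4 lay within the LP range. CD 1 was the highest CD sample for all 3, which start within 2 bases of each other and differ in nothing else. The ratio of the 54-nt to the 52-nt form ranged from 0.721 to 1.67 in CD and from 0.615 to 1.18 in LP, and the ranges overlapped.

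Fragments that end in the T loop were lower in LP as well. tRNA-Gly-CCC 30 shares its start with the 52-nt form but stops at the first base of the T loop, and it had 16, 30.8, 17.5, 34.5 and 9.3 normalized read counts in CD against 5.48, 2.99, 3.44 and 5.01 in LP. No LP sample reached the lowest CD sample, CD 5, and the log2 fold change was -2.33 ± 0.46 (SE, edgeR adjusted p = 0.00178). tRNA-Gly-TCC 30 has the same start and end positions in the other tRNA. It had 24, 9.91, 24.9, 22.7 and 13.4 in CD and 1.37, 7.97, 3.44 and 8.34 in LP, the value of LP 1 being a single count. The groups did not overlap, and the log2 fold change was -1.76 ± 0.47 (SE, edgeR adjusted p = 0.00452).

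tRNA-Gly-CCC 19 begins exactly where the 37-nt form begins and ends at the third base of the T loop. It had 6, 7, 12, 12 and 26 counts in CD and only 1, 1, 2 and 4 in LP, or 7.71 to 26.9 normalized read counts against 0.997 to 2.23, and was left out of the main test by the filter on low counts. Pooled over samples, CD was 8.47 times LP (95% exact counting interval 4.05 to 20.5, which covers counting error only). Without the filter the log2 fold change was -3.02 ± 0.48 (SE, edgeR adjusted p = 0.00155). The groups did not overlap for this form.

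tRNA-Gly-TCC 17, the 3′-terminal piece that starts at the last base of the T loop, had 92.8, 128.8, 103.9, 97.1 and 90.9 normalized read counts in CD and 56.2, 52.8, 55.7 and 43.4 in LP. Its SD was small beside its mean in both groups, and all LP samples were below all CD samples. Its log2 fold change of -0.98 ± 0.35 (SE, edgeR adjusted p = 0.0149) passed the adjusted p and missed the 2-fold limit. Across the 12 members, 9 had groups that did not overlap, against 76.6% of the 192 tRFs.

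**Figure D2:**
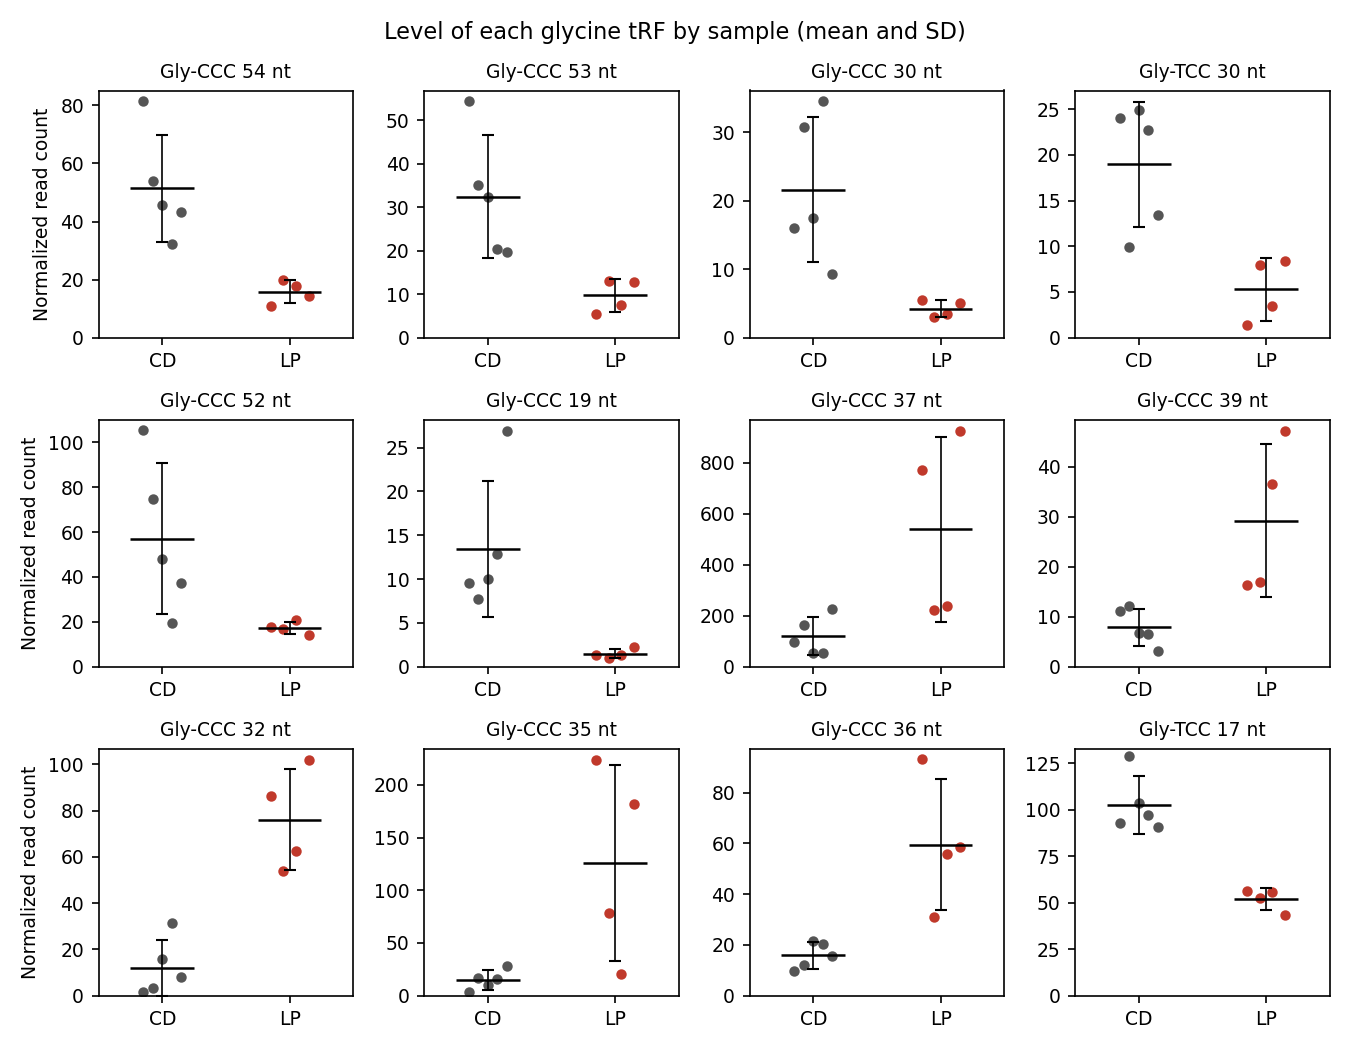
Normalized read count of each tRF in each sample (points), with the mean and SD (bars), for CD (n = 5, gray) and LP (n = 4, red), each panel on its own linear axis from 0. The forms of 32, 35, 36, 37 and 39 nt are higher in LP, with LP 2 at 221.3 below CD 5 at 225.2 for the 37-nt form and LP 3 at 20.6 below CD 5 at 27.9 for the 35-nt form, and the others are lower.

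In CD islets, the order of the mean levels was tRNA-Gly-CCC 37 (119 ± 74.6, SD, n = 5), tRNA-Gly-TCC 17 (102.7 ± 15.4), tRNA-Gly-CCC 52 (57.1 ± 33.8), tRNA-Gly-CCC 54 (51.4 ± 18.6) and tRNA-Gly-CCC 53 (32.4 ± 14.1), followed by the remaining members at means of 7.91 to 21.6. The ranges of neighbors in this order overlapped. In LP islets tRNA-Gly-CCC 37 (539 ± 362.3, SD, n = 4) was followed by the forms of 35 nt (126.2 ± 93), 32 nt (76.1 ± 21.9) and 36 nt (59.6 ± 25.6), again with overlapping ranges from each to the next. The order of the means thus changed from a mixture of long, short and intermediate pieces to one led by the 4 forms of 32 to 37 nt. Not every LP sample had this order, as tRNA-Gly-TCC 17 came next in the means (52 ± 5.95). It was above the 36-nt form in LP 2 (52.8 against 30.9) and above the 35-nt form in LP 3 (55.7 against 20.6). The 4 forms of 32 to 37 nt made up 34% ± 12.1 (SD) of the member counts in CD and 81.8% ± 9.91 in LP. Their ranges were 21.8% to 53.2% and 72% to 91.1%. The forms over 50 nt went from 29.8% ± 11.7 to 6% ± 3.74, and those that end in the T loop from 12.1% ± 4.27 to 1.41% ± 0.717. Summed over all members, the normalized read count was 467.2 ± 81.9 for the CD samples and 936.1 ± 482.7 for the LP samples. LP 2 and LP 3, at 516.3 and 524.4, lay inside the CD range of 367.9 to 550.4, and only LP 1 and LP 4 were above it, at 1290 and 1414.

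A ratio of nested fragments within a library does not depend on how libraries are scaled. The sum of the forms of 32 to 37 nt was 0.457, 1.2, 0.809, 1.69 and 2.76 times that of the forms over 50 nt in CD 1 to CD 5. In LP 1 to LP 4 it was 34.3, 7.72, 8.19 and 30.8 times. The groups did not overlap, and within LP the samples fell at distinct levels, LP 1 and LP 4 high and LP 2 and LP 3 lower. On the log2 scale the mean was 0.21 ± 0.99 (SD) in CD and 3.99 ± 1.17 in LP, a difference of 3.78. No test is given, because the members of each class had been selected as changed in opposite directions on these samples.

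**Figure D3:**
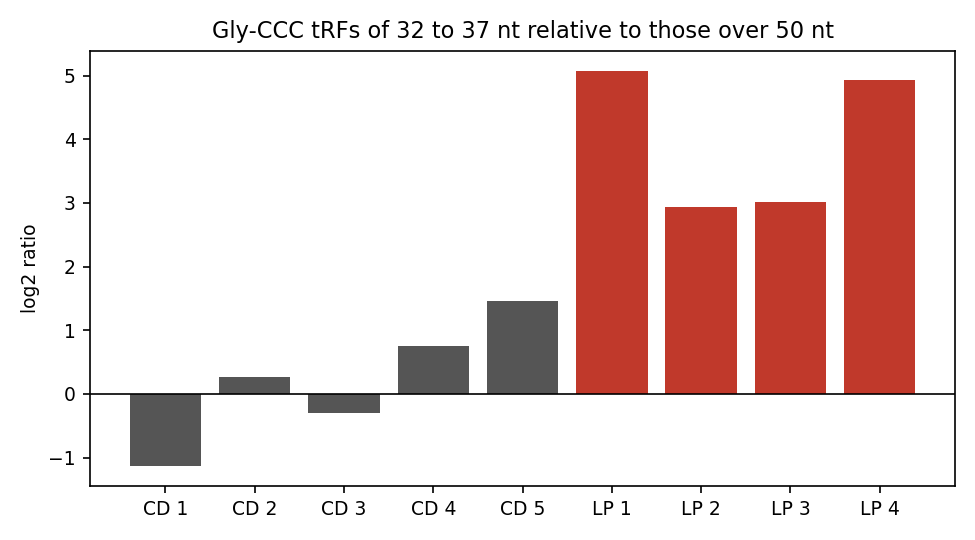
The log2 ratio, in each sample, of the summed tRNA-Gly-CCC forms of 32 to 37 nt to the summed forms over 50 nt (bars, CD in gray and LP in red, 0 where the sums are equal). The LP samples average 3.99 and the CD samples 0.21, with CD 1 and CD 3 below 0.

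Single pairs of nested forms are given as descriptions, since the pairs that separated the diets set a form listed as higher against one listed as lower. The 37-nt and 19-nt forms share their 5′ end, and their counts stood in a ratio of 4.17 to 21.4 in CD and of 173.5 to 563 in LP. The LP ratios rest on 1 to 4 counts of the shorter form, with 95% exact counting intervals whose lower bounds were 100.6, 39.4, 47.7 and 162 in LP 1 to LP 4. Against the 52-nt form, which extends past the anticodon at one end and completes the tail at the other, the 37-nt form had 0.909 to 6.06 times the level in CD and 11.6 to 66.5 times in LP. The 30-nt form, which shares the start of the 52-nt form, had a ratio to it of 0.152 to 1.78 in CD and 0.167 to 0.36 in LP. These ranges overlapped, with a wide spread in CD, and the LP ratios rest on 3 to 9 counts of the 30-nt form. Likewise the 37-nt form and the 35-nt form that starts 2 bases later had overlapping ratios of 3.33 to 30 and 2.81 to 11.6.

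The scaling of the libraries moved the sizes of all changes, and it ended the calls of part of the falls. Scaling on the table's own tRFs takes most of them as unchanged, whereas the table holds only tRFs called as changed. These fits therefore cannot decide which sizes, or which calls of falls, are right. When libraries were scaled on the table's own tRFs with TMM, edgeR's trimmed-mean scaling, the median log2 fold change of all tested tRFs moved up by 0.78, from -1.49 to -0.71. With DESeq2, run without the filter on low counts, it was -0.72, against -1.56 with DESeq2 and the authors' size factors. All 5 rises passed under both and became larger, at 2.59 to 3.82 with TMM and 2.69 to 3.92 with DESeq2, against 1.88 to 3.06 with edgeR and the authors' size factors. The number of members called lower went from 5 to 2 with TMM, and in DESeq2 from 6 with the authors' size factors to 2. The log2 fold changes of tRNA-Gly-CCC 54, 53 and 52 became -0.95, -0.98 and -0.94 with TMM (edgeR adjusted p = 0.0407, 0.0462 and 0.0731) and -0.88, -0.90 and -0.83 with DESeq2 (adjusted p = 0.0522, 0.0722 and 0.0963). tRNA-Gly-CCC 30 passed under both, at -1.64 and -1.58. tRNA-Gly-TCC 30 passed with TMM (-1.10, edgeR adjusted p = 0.0473) and not with DESeq2 (-1.08, adjusted p = 0.0737), and tRNA-Gly-CCC 19, tested only with DESeq2, passed at -2.41. tRNA-Gly-TCC 17 was at -0.26 and -0.18. No member changed direction under either scaling. With edgeR and the authors' size factors the median of the long forms, -1.69, lay close to the -1.49 of all tested tRFs. Without CD 3 the number called lower was 3, the filter on low counts then leaving both 30-nt forms out.

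**Figure D4:**
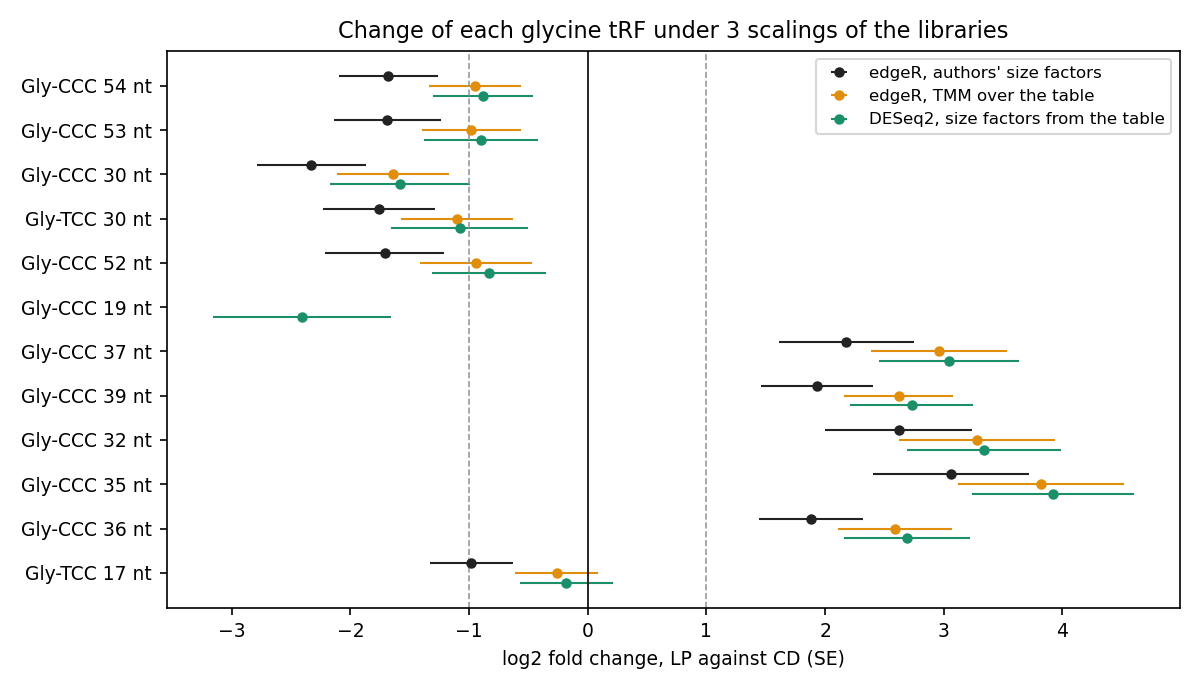
Log2 fold change of LP against CD (points) with its SE (bars) for each tRF, fitted with the authors' size factors, with TMM and with DESeq2 size factors from the table; dashed lines mark 2-fold. The 5 rises are past 2-fold under all 3, and the long forms of 52 to 54 nt move from between -1.71 and -1.68 to between -0.98 and -0.83.

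Most other fragments of the same size moved in the same direction. Of 34 tRFs of 32 to 37 nt from other hosts, 27 were higher and 7 lower in LP, with a median log2 fold change of 1.89, and all 17 tested tRFs over 50 nt from other hosts were lower, with a median of -2.14. Only 3 other tRFs of the table ended in the letters GGGT or GGGTTC, as the members that end in the T loop do, and both of those tested were lower. tRNA-Gly-GCC, the other nuclear glycine tRNA, gave 10 tRFs of its own. Its 4 forms of 32 to 37 nt, none of which has the complete tail, rose by 1.70 to 2.65 on the log2 scale. Its 6 forms of other lengths, all with the complete tail, were lower. Where in the tRNA the forms from other hosts lie was not determined, so size classes are matched by length only. The 3 sequences of 17 to 19 nt that tRNA-Gly-GCC shares with tRNA-Gly-CCC were listed as lower and 2 of them passed, such as the 17-nt form, at 269 ± 45.6 normalized read counts (SD, n = 5) in CD and 108.9 ± 23.9 (SD, n = 4) in LP. Both tRFs of the mitochondrial glycine tRNA fell. In a list of other hosts known for fragments of the 5′ part (tRNA-Glu-CTC, tRNA-Glu-TTC, tRNA-Asp-GTC, tRNA-His-GTG, tRNA-Lys-CTT, tRNA-Val-CAC and tRNA-Val-AAC), 36 of 54 tested tRFs were higher and 18 lower. The hosts differed, with 10 of 10 higher for tRNA-Glu-CTC and 13 of 14 for tRNA-Glu-TTC, and 11 of 13 lower for tRNA-His-GTG.

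Among the non-members, tRNA-Gly-GCC 36 had levels across the 9 samples most like those of tRNA-Gly-CCC 37 (root-mean-square difference of centered log2 levels 0.38). It was followed by a 40-nt tRF shared by tRNA-Ala-CGC and tRNA-Ala-TGC (0.54) and by tRNA-Ala-AGC 36 (0.56). For tRNA-Gly-CCC 52, the most abundant long form, the closest were tRNA-Leu-CAG 21 (0.37), tRNA-Leu-CAG 23 (0.38) and the 19-nt tRF shared by tRNA-Gly-CCC and tRNA-Gly-GCC (0.43). All points share the libraries and their scaling, and the list holds only tRFs chosen for a difference between the diets.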

How the data were processed

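Total RNA of islets was pretreated to free blocked ends and remove base methylations before small RNA libraries were made. The authors, as their methods state, took tRNA annotation from tRNAscan-SE, GtRNAdb and mitotRNAdb, called a tRF in a sample from 2 reads, and used DESeq2. Which aligner and genome build served, and whether molecular tags were used, is not given in the sources used here. Only tRFs that the authors called are in the deposited table of 255 rows. Its raw counts were deposited as whole numbers, unscaled. Its columns headed as normalized counts were deposited as score values that fit DESeq2's variance-stabilizing transformation of scaled counts (largest residual 5.7e-05), from which the authors' size factors were recovered. The deposited fold change and adjusted p-value columns hold the authors' own comparison, and were not used beyond the table's up or down mark.

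Rows were collapsed to 192 sequences and fitted with edgeR 4.0.16 (R 4.3.3), with the authors' size factors in place of library totals and filterByExpr at a minimum count of 10. Benjamini-Hochberg adjustment ran over the 181 tRFs tested, and the SE was computed from the F statistic. A call needed 2-fold and an adjusted p of 0.05. DESeq2 1.42.0 was an alternative. Ratios used a pseudocount of 0.5 on the log2 scale, and the printed linear ratios none. The T loop was located by the letters CCGGGT or TCCCGG. The fit was checked on simulated data in which most tRFs were unchanged and rises and falls were equal in number. That check does not cover a table that holds only tRFs called as changed. All 12 members are named, and the non-members with the most similar levels were chosen by the smallest root-mean-square difference of log2 levels. The members, classes and lists were chosen with earlier results of these data known.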

Additional observations from a re-analysis of the deposited data

How the results depend on the processing

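No member changed direction in the fits that tested it. Of 146 refitted log2 fold changes, 134 stayed on the same side of the threshold, 7 lost the call and 5, all of tRNA-Gly-TCC 17 with a sample left out, gained it. Another 8 could not be had, because with a CD sample left out the filter removed tRNA-Gly-CCC 30 (without CD 1, CD 2, CD 3 or CD 4) or tRNA-Gly-TCC 30 (without CD 1, CD 3, CD 4 or CD 5). The number of members higher in LP was 5 in every fit. The number lower was 5 as reported and 2 both with TMM over the table and with DESeq2 size factors from the table. It was 6 without the filter on low counts, 6 with DESeq2 and the authors' size factors, and 7 when the sequences shared with tRNA-Gly-GCC were kept. Leaving out each sample in turn gave 3 to 6 lower. The 3 came without CD 3, when 9 members were tested. The difference in the log2 ratio of forms of 32 to 37 nt to forms over 50 nt, 3.78, ranged from 3.42 to 4.13 with a sample left out and stayed within the spread between samples under the other settings. Same-numbered CD and LP samples did not deviate together (correlations over the tRFs of -0.40, 0.10, 0.06 and 0.01), and 0 of 4 LP samples were closest to their own number. With the replicate number as a block, over the 8 samples with numbers in both groups, 5 members were higher and 5 lower. Members of 1 to 9 counts in LP, such as tRNA-Gly-CCC 19 and tRNA-Gly-CCC 30, are limited by depth.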

Other observations

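Among the nested forms, the ratios of forms with different 3′ ends, in or just before the CCA tail, varied between samples of the same diet. tRNA-Gly-CCC 35 and tRNA-Gly-CCC 36 differ only in whether 1 or 2 bases of the tail are present. The 35-nt form had 0.333, 1.36, 0.462, 0.789 and 1.8 times the counts of the 36-nt form in CD 1 to CD 5, and 2.4, 2.55, 0.37 and 3.11 times in LP 1 to LP 4. LP 3 lay at the low end of the CD range, whereas the other LP samples were above it. In LP 3 the 32-nt form was 3.03 times as frequent as the 35-nt form, against 0.387 to 0.684 times in the other LP samples, and CD 3 and CD 4 also had more of the 32-nt form, at 1.58 and 1.93 times. Some CD ratios rest on few counts: in CD 1 the forms of 32, 35 and 36 nt had 1, 2 and 6. Counting error was not separated from differences between samples. These pairs were picked after their values were seen, and no test is given.

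Dixon's test, which sets the gap at an extreme against the range, was run on 26 sets of values. These were the levels of the 12 members and the log2 ratio of the size classes, in each group. It flagged 0 samples as standing apart from their group, where chance gives about 1.3. With 4 or 5 samples per set it finds only large gaps, and it cannot flag samples that stand apart together. LP 1 and LP 4, with size-class ratios of 34.3 and 30.8 against 7.72 and 8.19 in LP 2 and LP 3, are such a case.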
